A study of Mus musculus with 12 samples.

Results

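Transcripts of 38 genes of the cell cycle and of DNA replication were examined in the livers of female mice that overexpress Mir483 and of their control littermates, 6 of each, at 15 weeks of age. The 38 genes were taken by symbol from a raw count table of 55401 genes and fell into 3 roles. The G1 group held 13 genes, namely the D- and E-type cyclins with their kinases (Ccnd1, Ccnd2, Ccnd3, Ccne1, Ccne2, Cdk2, Cdk4 and Cdk6), the inhibitors Cdkn1b and Cdkn2c, and the regulators E2f1, Myc and Plk2. The replication group held 11 genes (Mcm2 to Mcm7, Pcna, Rrm1, Rrm2, Tk1 and Tyms). The mitosis group held 14 genes (Ccna2, Ccnb1, Ccnb2, Cdk1, Top2a, Bub1, Aurka, Aurkb, Plk1, Foxm1, Birc5, Cdc20, Cenpa and Kif20a). All 38 had a row in the table, and 31 had enough reads to be tested.

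The iTgMir483 mice carried a Mir483 transgene at the Rosa26 locus, whose expression is shut off by doxycycline. Transgenic offspring were obtained by mating males that carried the unrecombined allele with homozygous CMV-Cre females, so the Cre driver was ubiquitous rather than specific to the liver, and the littermates came from Cre mothers too. The controls are named only as such in the labels. Doxycycline was given to the mothers during pregnancy and then withdrawn, so the transgene was on after birth in the whole body and not in hepatocytes alone. RNA was from whole liver, so fewer cells of a type and less RNA per cell cannot be told apart. Mir483 itself had 0 reads in every control liver. In the 6 iTgMir483 livers it had 23.3 to 54.3 CPM (counts-per-million over TMM-scaled library sizes), in keeping with the labels. These are reads of poly(A) RNA over the Mir483 gene and do not measure the mature miRNA, which the paper reports as low in adult mouse liver.

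Cells enter the cycle when D-type cyclins bind Cdk4 or Cdk6 and phosphorylate the retinoblastoma protein, which frees E2F factors to switch on genes for DNA synthesis. The hexamer of Mcm2 to Mcm7 is loaded at origins in G1 and unwinds DNA in S phase, and the thymidylate and ribonucleotide enzymes supply its building blocks. Cyclin A2, the B-type cyclins and Cdk1 then drive the cell through G2 and mitosis. In the adult liver most hepatocytes rest outside the cycle and return to it after injury, and resident macrophages can divide as well.

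In all, 4 of the 31 tested members passed the test in iTgMir483 livers. Ccnd1, Cdkn2c and Mcm2 were upregulated and Tk1 was downregulated, each at an edgeR adjusted p under 0.05 and a fold over 1.5. That was 12.9% of the members tested, beside 11.1% of the 13205 genes tested in all, so the share of members that changed was close to the background. By direction, 3 members were higher beside a background of 8.41%, and 1 was lower beside a background of 2.73%. In 2 members, Cdkn2c and Mcm2, the groups did not overlap, which was also true of 7.92% of all genes tested. The log2 fold change was above 0 in 23 of the 31 tested members and below 0 in 8, with a median of 0.27 beside 0.01 over all genes tested. A rare member can be among the 31 through the group in which it is high, so these values describe the tested members only.

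**Figure D1:**
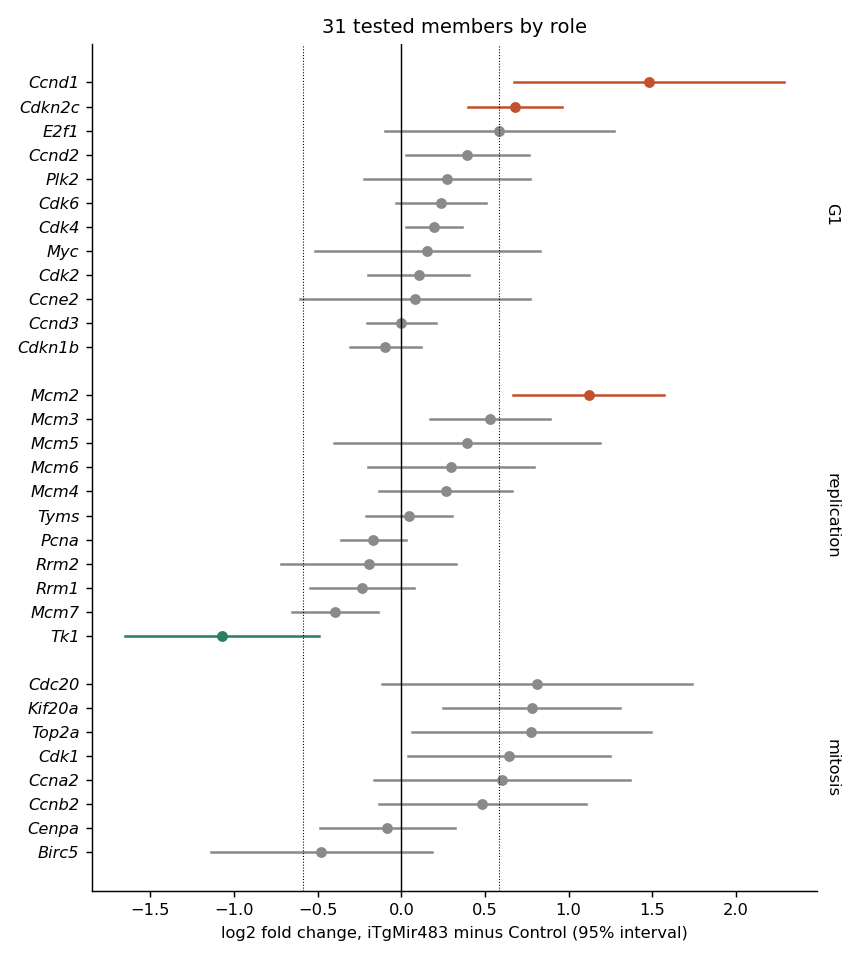
The log2 fold change (iTgMir483 minus Control) of the 31 tested members is plotted on the horizontal axis with its 95% interval, by role, and dotted lines mark a fold of 1.5. Orange marks Ccnd1, Cdkn2c and Mcm2, which were upregulated, green marks Tk1, which was downregulated, and grey marks the members that did not pass the test.

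Among the G1 genes, the largest change was in Ccnd1 (ENSMUSG00000070348, chromosome 7, 144929931 to 144939925, minus strand of GRCm38), which encodes cyclin D1, the mitogen-induced partner of Cdk4 and Cdk6. Ccnd1 ran from 18.6 to 57.0 CPM in controls with a median of 42.5, and from 24.3 to 197 CPM in iTgMir483 livers with a median of 123. The iTgMir483 livers 2, 3, 5 and 6 lay at 111, 197, 156 and 135 CPM, above every control, whereas livers 1 and 4 lay at 24.3 and 49.3 CPM, inside the control range. The log2 fold change was 1.48 ± 0.41 (SE, n = 6 per group, edgeR adjusted p = 0.022), and the exact permutation test over the 12 livers gave a two-sided p of 0.039. Without iTgMir483 liver 3 the change was 1.25 with an edgeR adjusted p of 0.054, and limma-voom gave an adjusted p of 0.062 on all 12 livers. The exons of Ccnd1 share 1100 bases with a gene on the opposite strand, and whether the counting used strand is not given in the sources used here.

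The other D-type cyclins did not pass the test. Ccnd2 had a median of 9.98 CPM in controls and 13.1 CPM in iTgMir483 livers, a log2 difference of 0.39 with a 95% interval of 0.03 to 0.76 that did not pass after adjustment (edgeR adjusted p = 0.16). Ccnd3 had medians of 39.3 and 37.0 CPM, and its 95% interval ran from -0.21 to 0.21. The E-type cyclins, which bind Cdk2 at the entry to S phase, were rare transcripts. Ccne2 had medians of 1.03 and 0.96 CPM, and Ccne1, with 45 reads over the 6 controls and 44 over the 6 iTgMir483 livers, was too low to be tested.

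The kinases differed by less than the fold threshold. None passed the test. Cdk4 lay at 34.6 to 43.0 CPM in controls and 39.7 to 47.8 CPM in iTgMir483 livers, and 4 iTgMir483 livers lay above every control. Its log2 difference was 0.20 ± 0.08 (SE, n = 6, edgeR adjusted p = 0.12). Cdk6 had medians of 25.9 and 32.4 CPM with a difference of 0.24 (edgeR adjusted p = 0.25), and Cdk2 had medians of 11.0 and 12.4 CPM with a difference of 0.10 (edgeR adjusted p = 0.68).

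Of the inhibitors, Cdkn2c was upregulated and Cdkn1b was not. Cdkn2c (ENSMUSG00000028551, chromosome 4, 109660876 to 109667189, minus strand) encodes p18, an INK4 protein that blocks Cdk4 and Cdk6. It ran from 3.62 to 6.96 CPM in controls with a median of 6.02, and from 7.97 to 10.6 CPM in iTgMir483 livers with a median of 9.13. All 6 iTgMir483 livers lay above all 6 controls. In livers 2, 3, 5 and 6 both cyclin D1 and this inhibitor of its kinases were thus above every control. The log2 fold change was 0.68 ± 0.14 (SE, n = 6, edgeR adjusted p = 0.0055), and the exact permutation p was 0.0022, the smallest that permuting the 12 livers can give. Control 5, at 3.62 CPM, stood below the other controls at 5.76 to 6.96 CPM, and without it the log2 difference was 0.58, just under the fold threshold, with an edgeR adjusted p of 0.0067. Cdkn1b, which encodes p27, an inhibitor of Cdk2 in resting cells, had medians of 18.6 and 16.5 CPM and a 95% interval of -0.31 to 0.12.

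None of the 3 G1 regulators passed the test. E2f1, a transcriptional activator held back by the retinoblastoma protein, ran from 0.80 to 3.95 CPM in controls and from 1.57 to 4.0 CPM in iTgMir483 livers, a log2 difference of 0.59 ± 0.35 (SE, n = 6, edgeR adjusted p = 0.26). Control 1 alone made the top of the control range, since the other 5 controls lay between 0.80 and 1.67 CPM. Without control 1 the difference was 1.02 (edgeR adjusted p = 0.018). Myc, a growth factor-induced transcription factor, ran from 2.20 to 7.39 CPM in controls and from 2.77 to 13.6 CPM in iTgMir483 livers, and Plk2, a kinase of early G1, from 6.58 to 14.6 and from 5.01 to 16.7 CPM. Neither passed the test (edgeR adjusted p = 0.79 and 0.48).

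**Figure D2:**
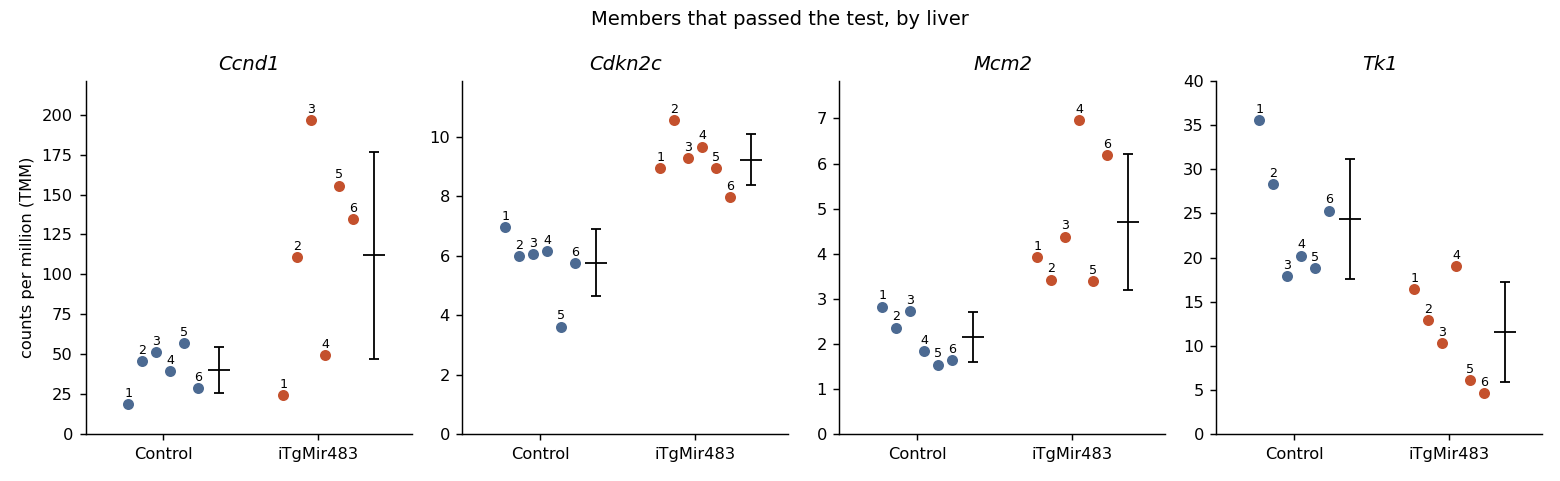
CPM (vertical axes, from 0) of Ccnd1, Cdkn2c, Mcm2 and Tk1 in each liver, numbered by replicate, with the mean and SD of each group of 6 as a black bar. Cdkn2c and Mcm2 did not overlap between groups, iTgMir483 livers 1 and 4 lay inside the control range for Ccnd1 at 24.3 and 49.3 CPM, and only iTgMir483 liver 4 lay inside it for Tk1 at 19.1 CPM.

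Of the 11 replication genes, all tested, Mcm2 rose and Tk1 fell. Mcm2 was the only subunit of the helicase that passed the test. Mcm2 (ENSMUSG00000002870, chromosome 6, 88883474 to 88898780, minus strand) ran from 1.54 to 2.82 CPM in controls with a median of 2.10, and from 3.38 to 6.96 CPM in iTgMir483 livers with a median of 4.16. Every iTgMir483 liver lay above every control. The log2 fold change was 1.12 ± 0.23 (SE, n = 6, edgeR adjusted p = 0.0049), and the exact permutation p was 0.0022, again the smallest possible. These values rested on 18 to 95 reads per liver.

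Mcm3 came closest of the other subunits, with 2.38 to 4.83 CPM in controls and 3.50 to 5.94 CPM in iTgMir483 livers and a log2 difference of 0.53 ± 0.18 (SE, n = 6, edgeR adjusted p = 0.057). Of the 6 iTgMir483 livers, 3 lay above every control. Without control 1, the highest control, the difference was 0.67 with an edgeR adjusted p of 0.014, and without iTgMir483 liver 2 it was 0.60 with an edgeR adjusted p of 0.034. Mcm4, Mcm5 and Mcm6 had log2 differences of 0.27, 0.39 and 0.30, and none passed the test (edgeR adjusted p = 0.38, 0.53 and 0.44).

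Mcm7 lay on the other side. It ran from 11.5 to 19.6 CPM in controls with a median of 13.1, and from 9.46 to 12.0 CPM in iTgMir483 livers with a median of 10.3. Of the 6 iTgMir483 livers, 5 lay below every control and liver 3, at 12.0 CPM, lay inside the control range. Its log2 difference of -0.40 ± 0.13 (SE, n = 6) had an edgeR adjusted p of 0.049 but was under the fold threshold, so Mcm7 was not counted as changed. The Mcm7 gene hosts Mir25 and Mir93 and shares 385 exon bases with Ap4m1 and Cops6 on the opposite strand.

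Tk1 (ENSMUSG00000025574, chromosome 11, 117815526 to 117826092, minus strand) encodes the cytosolic thymidine kinase, the salvage enzyme for thymidine. It was the only member that was downregulated. Tk1 ran from 17.9 to 35.6 CPM in controls with a median of 22.8, and from 4.64 to 19.1 CPM in iTgMir483 livers with a median of 11.6. Again 5 iTgMir483 livers lay below every control, and liver 4, at 19.1 CPM, lay inside the control range. The log2 fold change was -1.07 ± 0.30 (SE, n = 6, edgeR adjusted p = 0.021), with an exact permutation p of 0.0065. The 2 lowest livers, iTgMir483 5 and 6 at 6.14 and 4.64 CPM, were among the 4 with the highest Ccnd1. Tk1 shares 83 exon bases with Afmid on the opposite strand.

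The remaining replication genes did not pass the test. Tyms, which makes thymidylate de novo, had medians of 5.43 and 5.47 CPM and a 95% interval of -0.21 to 0.31. The ribonucleotide reductase subunits Rrm1 and Rrm2 had log2 differences of -0.24 and -0.19, with intervals of -0.55 to 0.07 and -0.72 to 0.33. Pcna, the sliding clamp of the replication fork, had medians of 19.9 and 18.5 CPM and a log2 difference of -0.17 (edgeR adjusted p = 0.26). Over the 11 replication genes 6 differences were above 0 and 5 below, with a median of 0.05.

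Most mitosis genes were rare transcripts, and none of the 8 that could be tested passed with edgeR or limma-voom, while DESeq2 called 1, Kif20a. Unadjusted edgeR p was under 0.05 in 2 of these 8, Kif20a and Top2a, beside 4412 of all 13205 genes tested. In all, 6 of the 8 had a log2 difference above 0, and the median was 0.62 beside 0.01 over all genes tested. A rare gene can pass the filter on low counts through the group in which it is high, so this count and median depend on the filter. Ccnb2 and Cdc20 had only 59 and 45 reads over the controls, and 72 and 68 over the iTgMir483 livers. Kif20a, a kinesin of cytokinesis, ran from 0.60 to 1.38 CPM in controls and from 0.95 to 2.28 CPM in iTgMir483 livers, a log2 difference of 0.78 ± 0.27 (SE, n = 6, edgeR adjusted p = 0.059). The highest 4 of the iTgMir483 livers lay above every control. DESeq2 gave 0.77 with an adjusted p of 0.049, and without control 1 edgeR gave 0.94 with an adjusted p of 0.029. Without iTgMir483 liver 1 or 6 it gave 0.88 and 0.87, with adjusted p values of 0.034 and 0.047. Kif20a shares 1271 exon bases with Cdc23 on the opposite strand.

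Top2a, which untangles chromosomes, ran from 0.37 to 1.57 CPM in controls and from 0.66 to 2.20 CPM in iTgMir483 livers, a log2 difference of 0.78 ± 0.36 (SE, n = 6, edgeR adjusted p = 0.15). Cdk1, the mitotic kinase, had medians of 0.69 and 1.44 CPM and a difference of 0.64 (edgeR adjusted p = 0.16). Cdc20, the activator of the anaphase-promoting complex, Ccna2 and Ccnb2 had differences of 0.81, 0.60 and 0.48 with 95% intervals that all included 0. Cenpa, the histone of centromeres, and Birc5, the survivin subunit of the chromosomal passenger complex, were on the other side at -0.08 and -0.48, with edgeR adjusted p values of 0.81 and 0.34.

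The other 6 mitosis genes and Ccne1 were too low for the test. Ccnb1, which encodes cyclin B1, had 9 reads over the 6 controls and 30 over the 6 iTgMir483 livers, with 4 to 8 reads in iTgMir483 livers 2 to 6 and 0 in liver 1. Foxm1, the transcription factor of the G2 and mitosis genes, had 36 and 59 reads, and Plk1, a mitotic kinase, 20 and 35 reads. Aurkb, Aurka and Bub1 had 29 and 42, 64 and 60, and 13 and 10 reads. Fitted without the filter on low counts, the log2 differences of Foxm1, Ccnb1 and Plk1 were 0.91, 1.81 and 1.05, and the edgeR adjusted p values were 0.14, 0.17 and 0.28. None of the 7 passed in that fit after adjustment, while the unadjusted p was 0.021 for Foxm1 and 0.026 for Ccnb1. Foxm1 ran from 0.20 to 0.50 CPM in controls and from 0.50 to 0.93 CPM in iTgMir483 livers, with 5 of 6 above every control. For Plk1 and Ccnb1, 4 of 6 lay above every control. The exact permutation test gave unadjusted p values of 0.0043 for Foxm1, 0.019 for Plk1 and 0.039 for Ccnb1. For Aurkb, Ccne1, Aurka and Bub1 the same test gave unadjusted p values of 0.21, 0.73, 0.81 and 0.92.

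**Figure D3:**
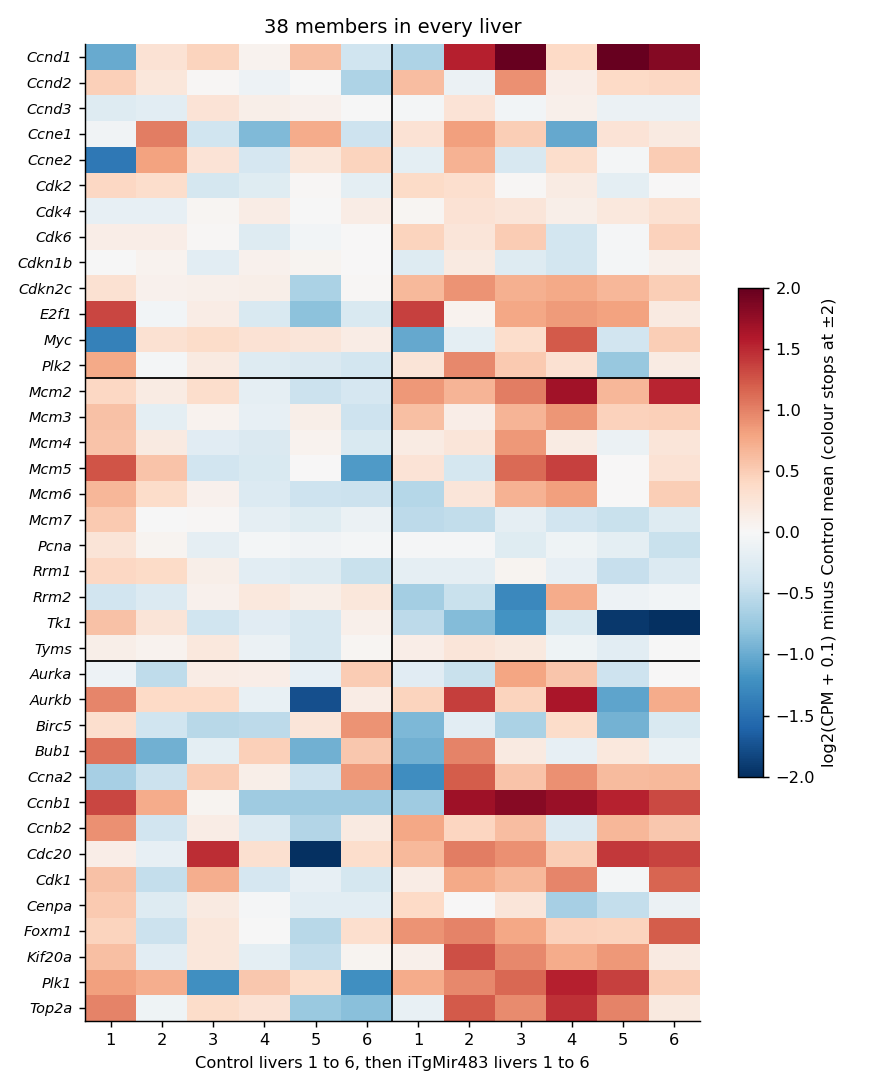
Each cell gives log2(CPM + 0.1) of 1 of the 38 members in 1 liver minus the mean of the 6 controls, in role blocks from G1 at the top to mitosis at the bottom, with colours stopping at 2 either way. Control 1 was the highest control in 24 of the 38 members, and Mcm2 and Cdkn2c were above the control mean in all 6 iTgMir483 livers.

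Control 1 stood apart among the controls. It was the highest control in 24 of 38 members, including 9 of 11 replication genes and 9 of 14 mitosis genes, and it was the lowest in 6, among them Ccnd1 and Myc. The count of changed members depended on it: without control 1, 7 of 31 members passed, with E2f1, Kif20a and Mcm3 added to the 4, and the share of all genes was then 12.1%. Without the replicate 1 livers of both groups 8 of 30 members passed, 26.7% beside 12.8% of all genes, and the eighth was Top2a at 1.19 (edgeR adjusted p = 0.022). No litter, date or batch in the labels sets control 1 apart. The numbers in the column headers are lowest for control 1 and, next to it, iTgMir483 liver 1, and what these numbers stand for is not given.

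The summed levels of the role groups overlapped between genotypes. The most abundant genes weigh most in these sums. The 13 G1 genes summed to 189 to 224 CPM in controls and 209 to 394 CPM in iTgMir483 livers, and 5 of the 6 iTgMir483 livers were above every control. Ccnd1 alone gave 197 of the 394 CPM in iTgMir483 liver 3. The 11 replication genes summed to 80.7 to 124 CPM in controls and 66.6 to 98.5 CPM in iTgMir483 livers, with no iTgMir483 liver above the control range. Tk1, Pcna and Mcm7 had the highest control means of the 11, at 24.4, 20.5 and 13.9 CPM, and log2 differences below 0. Of the 11 differences, 6 were above 0 and 5 below. The 14 mitosis genes summed to 8.44 to 16.2 CPM in controls and 12.3 to 17.1 CPM in iTgMir483 livers, and only liver 2 was above control 1.

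**Figure D4:**
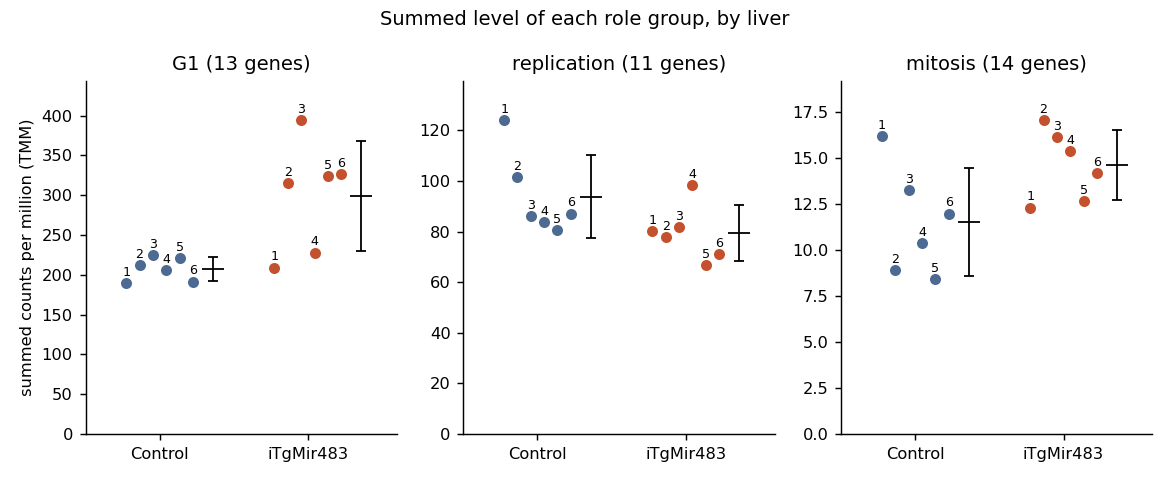
Summed CPM (vertical axes, from 0) of the 13 G1, 11 replication and 14 mitosis genes in each liver, numbered by replicate, with the mean and SD of each group of 6 as a black bar. The G1 sums reached 394 CPM in iTgMir483 liver 3 and 224 CPM in the highest control, and all 3 sums overlapped between groups.

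Scaled by exon length, Cdk4 was the most abundant member in control livers at 12.0 CPM per kilobase, followed by Pcna at 8.53, Ccnd1 at 8.50 and Tk1 at 4.69. In iTgMir483 livers Ccnd1 was first at 23.8 CPM per kilobase, and Tk1, at 2.23, was number 10. Cdkn2c stood at number 10 with 2.14 in controls and at number 6 with 3.44 in iTgMir483 livers, and Mcm2 went from 0.31 to 0.68. Ccnb1 and Bub1 held the last 2 places in both groups, at 0.02 to 0.08 CPM per kilobase.

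Other genes of the same pathways were counted in 6 lists of 140 genes, of which 102 were tested. Of these, 8 changed, 5 higher and 3 lower, which is 7.84% beside 11.1% of all genes, and the median log2 difference was -0.01. Of 21 tested genes of the spindle, kinetochore and cytokinesis 1 rose and 1 fell. Mki67, which encodes the proliferation marker Ki-67, ran from 1.27 to 2.95 CPM in controls and from 3.28 to 6.74 CPM in iTgMir483 livers without overlap (log2 fold change 1.31 ± 0.24 SE, n = 6, edgeR adjusted p = 0.0027). Spc24, a kinetochore subunit, fell by 0.67 on the log2 scale. Among the other CDK inhibitors 1 of 3 tested genes rose, Cdkn2d, the INK4 relative p19, by 0.79, while Cdkn1a, which encodes p21, ran from 4.08 to 90.6 CPM in controls and from 2.91 to 169 CPM in iTgMir483 livers (edgeR adjusted p = 0.55).

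Of 17 tested genes of the pocket protein, E2F and DREAM list, Rbl1, which encodes p107, rose by 0.80 and the repressor E2f8 fell by 0.89. Of 17 tested other cyclins and CDK regulators, Ccnf, cyclin F, fell by 0.85. Of 33 tested origin and fork genes, Rfc3, a subunit of the clamp loader, rose by 0.84, and Rfc2 was 0.40 higher without overlap between groups, under the fold threshold. Of 11 tested genes of the DNA damage checkpoint, Brca1 rose by 1.07, from 1.21 to 2.56 CPM in controls to 2.71 to 8.57 CPM in iTgMir483 livers without overlap. The edgeR adjusted p values of Cdkn2d, Rbl1, E2f8, Ccnf, Rfc3, Spc24 and Brca1 lay between 0.015 and 0.046, and all of these except Brca1 lost the call under the removal of some single liver, in 5 of the 12 removals for Cdkn2d and Rbl1, 8 for Ccnf and Spc24 and 9 for E2f8 and Rfc3, with edgeR adjusted p values up to 0.104.

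Marker sums of macrophages, neutrophils and bile duct cells lay above every control in all 6 iTgMir483 livers. Those of the other cell types examined overlapped between groups. In all, 7 of 8 macrophage markers were upregulated. Their sum ran from 308 to 457 CPM in controls and from 481 to 1322 CPM in iTgMir483 livers. The sum and Mcm2 were both highest in liver 4, whereas liver 3 had the lowest sum of the iTgMir483 livers and a higher Mcm2 than livers 1, 2 and 5. Among 8 markers of neutrophils and their precursors, both that could be tested rose, and the sum ran from 0.89 to 2.72 CPM in controls and from 2.94 to 27.0 CPM in iTgMir483 livers. The 2 were S100a8, without overlap between groups, and S100a9, which in iTgMir483 liver 3 lay inside the control range, at 0.96 beside 0.34 to 1.46 CPM. Mpo, Elane, Ngp, Camp and Ltf had at most 0.20 CPM in any control and were too low to be tested. Of 5 tested bile duct markers 3 rose. The bile duct sum ran from 21.0 to 46.1 CPM in controls and from 60.8 to 89.4 CPM in iTgMir483 livers. Spp1 made up most of it, at 16.18 to 37.99 CPM in controls and 51.96 to 77.13 CPM in iTgMir483 livers. Krt7 and Epcam, which also rose, overlapped between groups, so the separation of the bile duct sum rested mainly on Spp1. Lymphocyte marker sums ran from 6.58 to 13.3 CPM in controls and from 6.77 to 12.1 CPM in iTgMir483 livers, and 1 of 5 tested markers rose, Cd4, from 0.46 to 1.15 CPM to 1.16 to 1.88 CPM without overlap. Of these 5 markers, 2 had a log2 difference above 0 and 3 below, with a median of -0.10. Erythroid sums ran from 124 to 218 CPM and from 82.6 to 354 CPM, and 1 of 5 tested markers fell, Klf1, by 0.95 on the log2 scale. The other 4 tested erythroid markers had log2 differences above 0, and none of them passed the test. Stellate cell and sinusoidal endothelial sums overlapped between groups, and none of their 12 markers changed. The 6 hepatocyte markers, Alb among them, summed to 116000 to 163800 CPM in controls and to 68790 to 136000 CPM in iTgMir483 livers. The lowest sums were those of livers 4 and 1, at 68790 and 69760 CPM, the livers whose Ccnd1 lay inside the control range. Of the 6 markers, 2 had a log2 difference above 0 and 4 below, with a median of -0.19. Only Fgb passed the test, rising from 3088 to 4766 CPM in controls to 5428 to 14490 CPM in iTgMir483 livers without overlap. The part of these cells in the changes of Ccnd1, Cdkn2c, Mcm2, Tk1 and Mki67 was not tested.

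The mature arms of the overexpressed miRNA are shown because they are what the transgene adds, and their seeds are the bases searched for in the members. Sequences are from RefSeq on GRCm38.p6 and run 5′ to 3′, with bases 2 to 8 in capitals.
mmu-miR-483-3p: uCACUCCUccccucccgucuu
mmu-miR-483-5p: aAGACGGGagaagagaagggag
The 3p arm lies at chr7:142654932-142654952 and the 5p arm at chr7:142654968-142654989, both on the minus strand.

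A 7-base match to bases 2 to 8 of miR-483-3p (AGGAGTG) was present in the longest annotated 3′ UTR of 3 of the 38 members, Cdk6, Cdkn1b and Tyms. All 3 were among the 31 tested, 9.68% beside 12.6% of the 12098 tested genes with an annotated 3′ UTR. None of the 4 changed members held a match. The 3′ UTRs of the members were shorter, with a median of 854 bases beside 1164 bases. A single member, Ccnd2, matched miR-483-5p (CCCGTCT), which was found in 3.26% of tested genes. The matches are given with their surroundings, the 7 bases in capitals, because no other member held one.
Cdk6, plus strand, chr5:3521617-3521646: caatacatttaAGGAGTGagtgtacctcag
Cdkn1b, plus strand, chr6:134922546-134922575: cacgtttgattAGGAGTGtgaatagagctg
Tyms, minus strand, chr5:30059035-30059064: tttttatattcAGGAGTGctctaaacacaa
Ccnd2, minus strand, chr6:127129063-127129092: aggattgaatcCCCGTCTatgtttttctcc
Those of Cdk6 and Ccnd2 are followed by an A. None of the 4 genes passed the test, with log2 differences of 0.24 for Cdk6, -0.10 for Cdkn1b, 0.05 for Tyms and 0.39 for Ccnd2.

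Promoters were searched for letters that E2F and mitotic factors are known to read, in the 250 bases before the start. RefSeq sequences were matched for 29 of the 38 members, with 32 promoters. E2F-type letters (TTCCCGC or TTGGCGC or TTCGCGC or TTGCCGC on either strand) were found in 10 of the 32, 31.2% beside 7.89% of all 32851 promoters, and in 6 of 11 promoters of replication genes. CCAAT was found in 21 of 32, 65.6% beside 33.8%, and in 9 of 10 promoters of mitosis genes. The cell cycle homology letters TTTGAA or TTCGAA were found in 6 of 32, 18.8% beside 17.1%, and in 4 of 10 promoters of mitosis genes. Matches on both strands were searched, and neighbouring matches could overlap. The 32851 promoters are those of 27025 genes, tested in liver or not, and the shares over tested genes alone were not counted.

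The promoters of Mcm2 and Tk1 are shown since these S phase genes changed in opposite directions. Capitals mark the letters searched for, and the Tk1 stretch ends before the first annotated exon.
Mcm2, minus strand, chr6:88898781-88899030: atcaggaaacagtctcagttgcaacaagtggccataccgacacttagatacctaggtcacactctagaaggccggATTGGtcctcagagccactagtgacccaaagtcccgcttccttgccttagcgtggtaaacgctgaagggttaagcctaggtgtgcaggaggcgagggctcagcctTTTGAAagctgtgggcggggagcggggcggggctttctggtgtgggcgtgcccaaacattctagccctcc
Tk1, minus strand, chr11:117826093-117826264: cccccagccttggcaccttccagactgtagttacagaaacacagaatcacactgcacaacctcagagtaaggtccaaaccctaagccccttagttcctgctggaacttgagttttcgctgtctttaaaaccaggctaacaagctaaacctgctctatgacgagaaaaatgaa
Mcm2 held ATTGG, the reverse of CCAAT, starting 175 bases before the start and TTTGAA 70 bases before it, and no E2F-type letters. Tk1 held none of the letters searched. Of the 2 annotated promoters of Cdkn2c, 1 held TTCCCGC 25 bases before its start. Mcm2, Tk1 and Cdkn2c thus did not share any of these letters. Ccnd1, the other changed member, had no promoter among those searched.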

How the data were processed

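Poly(A) RNA of whole liver from 12 female mice was sequenced. The deposited file holds raw read counts per Ensembl gene, which the authors made by aligning stranded paired-end reads to GRCm38 with STAR, and the strand setting of the counting is not given in the sources used here. Libraries held 12244123 to 30431286 counts. Of 55401 genes, 55141 were matched to a symbol through the GENCODE M21 annotation, which also gave positions, exon lengths, overlaps and 3′ UTRs. The counts were analysed with edgeR 4.0.16 (TMM, filterByExpr, quasi-likelihood F-test) over all 13205 genes that passed the filter. A gene was called changed at an adjusted p (Benjamini-Hochberg, all genes tested) below 0.05 with a fold above 1.5. A gene can pass that filter through the group in which it is high. SE was the size of the log2 fold change over the square root of F, and 95% intervals are normal. For single members, all assignments of the 12 livers to groups were enumerated (exact permutation test of the difference in mean log2 CPM, two-sided). The groups were compared again with DESeq2 1.42.0, limma-voom (limma 3.58.1, R 4.3.3), other scaling, filters and thresholds, a replicate block, and without each library. The fitting procedure was tested on simulated data.

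The 38 members, the pathway lists and the cell type markers were chosen with earlier results of these data known, so no test of a list was made. All 38 members were named by rule, and, from each pathway list, up to 4 changed genes in each direction and genes without overlap between groups. Cdkn1a and single marker genes were named after their values were seen. Replicates are separate mice per the labels. No 2 libraries of the same group agreed within sampling noise, with a chi-square per gene of at least 15.6. Pairs across groups were not compared in this way.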

Additional observations from a re-analysis of the deposited data

Results flagged for a closer look

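Of 130 groups of 6 livers that were screened (each of the 38 members, each changed gene of the pathway lists and each summed list, in each genotype), 12 held 1 liver whose gap to its neighbour, as a share of the group's range, was above Dixon's 95% critical value for a group of 6. Chance gives about 1 in 20, or 6.5 of 130.

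Control 1 was the liver apart in 4 of them. It was the highest control for E2f1, at 3.95 CPM beside 0.80 to 1.67 CPM (gap 0.724), for Mcm7, at 19.6 beside 11.5 to 13.8 CPM (0.719), and for Cdkn2d, at 3.51 beside 1.20 to 1.95 CPM (0.674). It was the lowest for Myc, at 2.20 beside 6.40 to 7.39 CPM (0.81). Control 5 was the lowest for Cdkn2c, at 3.62 CPM (0.64), and the highest for the sum of stellate cell and fibroblast markers, at 335.8 beside 258.2 to 281.2 CPM (0.703). Control 3 was the lowest for Cdkn1b, at 15.6 beside 18.1 to 19.3 CPM (0.692).

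Among iTgMir483 livers, liver 3 was the highest for Mcm4, at 5.88 beside 2.95 to 3.79 CPM (0.711), and for Rbl1, at 3.42 beside 1.70 to 2.27 CPM (0.669). Liver 4 was the highest for the sum of macrophage markers, at 1322 beside 481 to 669 CPM (0.777), and for the sum of DNA damage checkpoint genes, at 211 beside 98.8 to 116 CPM (0.849). Ccnb1 had 0 reads in liver 1 beside 0.31 to 0.48 CPM in the other livers (0.645), on 4 to 8 reads each.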

How the results depend on the processing

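The count of changed members was 4 of 31 under RLE scaling and the replicate block, 4 of 38 without a filter, 4 of 22 with at least 10 counts in every sample, 5 of 31 with DESeq2 and 3 of 31 with limma-voom. Tested against a fold of 1.5 with edgeR, 0 members (0 higher, 0 lower) and 226 genes (167 higher, 59 lower) passed. In the test against no change, 9 of 31 members had an unadjusted p under 0.05, beside 4412 of all 13205 genes tested. By adjusted p alone 2457 genes passed (968 lower), with 2 lower members, Tk1 and Mcm7. Without each liver in turn, 3 to 7 members passed, 2 to 6 of them higher. The lowest count, 3, came without control 5 or iTgMir483 liver 3, and the 7, 6 higher, without control 1. Without both replicate 1 livers 8 passed, 7 higher. The cause was not tested.

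The replicate numbers share no stated litter or batch. Deviations from the group means correlated at 0.44 for number 1 and at 0.03 to 0.17 for numbers 2 to 6, so the numbers were not taken to pair the livers. With the number as a block 1530 genes passed.

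Small differences changed sign. Ccnd3 was -0.01 with RLE or DESeq2, -0.02 without a filter, -0.04 without both replicate 1 livers and -0.06 to 0.06 without single livers. Ccne2 was -0.04 without both replicate 1 livers and -0.12 to 0.29 without single livers, Cenpa -0.19 to 0.04, Myc -0.16 to 0.32 and Tyms -0.01 to 0.10. An 8-base match to miR-483-3p left 1 member, Cdk6, and any annotated transcript gave the same 3. Genes under about 1 CPM rested on few reads, which limits the mitosis group most.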

Other observations

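The replicate 1 livers of both groups held the same end of their group in 7 of the 38 members, counted after the values were seen. E2f1, at 3.95 and 4.0 CPM, Cdk2, Cenpa and Ccnb2 were highest in their group in both, and Myc, at 2.20 and 2.77 CPM, Ccnd1, at 18.6 and 24.3 CPM, and Ccna2 were lowest in both. For the other replicate numbers this count was 0 to 4. Outside the 38, Cdkn1a was also lowest in both, at 4.08 and 2.91 CPM. The labels give no litter, date or time of day for these livers, and what they share was not tested.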
